A study of Mus musculus with 81 samples.

Results

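Intracisternal A particle long terminal repeats (IAP LTRs) were examined in RNA of fetal mouse testis. They were taken as every annotated LTR locus whose RepeatMasker name begins with IAPLTR, a rule that uses the annotation and no measured value. It found 11384 of 970384 LTR loci, under 10 of 680 names, here called subtypes. IAPLTR1_Mm, IAPLTR1a_Mm, IAPLTR2_Mm, IAPLTR2a, IAPLTR2a2_Mm, IAPLTR2b, IAPLTR3 and IAPLTR4 are LTRs, whereas IAPLTR3-int and IAPLTR4_I are by name internal pieces of the element, so that these names are not all LTRs. The libraries came from the testes of E18.5 fetuses of the OG2 strain, in which a promoter of Pou5f1 drives EGFP in germline cells, and every group carried this transgene. F0 dams received 50 nM tributyltin (TBT), an organotin compound, or its solvent DMSO, and the F1 and F3 offspring of each line were compared. Cell sorting gave EGFP-positive P4 and P5 germline cells, which differ in side scatter, and EGFP-negative P6 somatic cells, a mixture of all other testis cells. There were 5 DMSO and 7 TBT libraries of F1 P4 cells, 4 and 7 of F1 P5 cells, 5 and 7 of F1 P6 cells, and 4 and 5 of each F3 population, 62 in all. The labels do not say whether libraries of 1 group are separate animals, so p-values measure the spread between these libraries. F1 P4 libraries are numbered 43-4, 43-5, 44-1, 44-3 and 48-4 in DMSO and 45-3, 45-4, 45-5, 47-1, 47-3, 47-4 and 47-5 in TBT. Several thus share the first part of a number, always within 1 exposure, and what that part marks is not stated.

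IAPs are mouse endogenous retroviruses of the ERVK class that still insert new copies. A complete copy carries an identical LTR at each end, of which the upstream one holds the promoter and the downstream one the polyadenylation signal, and recombination between both leaves a solitary LTR. In most tissues IAPs are silenced by DNA methylation and histone H3 lysine 9 methylation guided by KRAB zinc finger proteins, and in male fetal germ cells, where methylation is erased and laid down again before birth, the piRNA pathway takes part in silencing them.

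The subtypes differed in length, sequence and state. IAPLTR1a_Mm was the most numerous LTR with 1783 loci of a median 338 bases, followed by IAPLTR2a2_Mm with 1540 and IAPLTR1_Mm with 1485, and IAPLTR4_I was the rarest name with 180. Of the IAPLTR1_Mm loci, 95.7% lay within 50 bases of an internal IAP piece, as LTRs of a provirus do, and of IAPLTR1a_Mm 92.9%, whereas only 42.9% of IAPLTR2b and 34.2% of IAPLTR4 did. Of all IAPLTR loci, 9118 (80.1%) lay outside annotated genes, 2012 in introns and 254 in exons, and of all LTR loci 64.5% lay outside genes. Among loci of 300 to 500 bases, IAPLTR loci held 4.55 CpG sites per 100 bases, against 0.748 at the 307879 other LTR loci. The hexamer AATAAA, the polyadenylation signal, was found on either strand in 99.9% of IAPLTR1_Mm and 95.2% of IAPLTR2b loci of this length, in 14.8% of IAPLTR4 and 1.34% of IAPLTR3 loci, and in 48.5% of the other LTR loci. The pentamer TATAA, a core of the TATA box, was searched in the same way and was found in 97.5% of IAPLTR3, 71.2% of IAPLTR2a2_Mm and 8.89% of IAPLTR1_Mm loci, and in 62.7% of the others. A match is a description of these letters and not evidence that a site is used.

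The 5 IAPLTR loci outside genes with the highest level averaged over the 6 cell populations are shown by their first 300 bases, since their levels are described copy by copy below. Each is the plus strand of GRCm38, with CG in capitals. The first and second were read mainly in germline cells and the other 3 in somatic cells.
IAPLTR2a2_Mm, chr6:110571048-110571347, nearest gene Gm20387 at 68202 bases: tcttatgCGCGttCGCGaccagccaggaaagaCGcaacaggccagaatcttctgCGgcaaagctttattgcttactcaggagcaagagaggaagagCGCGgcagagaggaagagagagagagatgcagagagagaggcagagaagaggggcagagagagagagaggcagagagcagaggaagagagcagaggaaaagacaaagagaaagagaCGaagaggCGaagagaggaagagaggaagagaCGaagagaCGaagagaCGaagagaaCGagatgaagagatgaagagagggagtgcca
IAPLTR2_Mm, chr13:98525734-98526033, nearest gene Gm10320 at 33733 bases: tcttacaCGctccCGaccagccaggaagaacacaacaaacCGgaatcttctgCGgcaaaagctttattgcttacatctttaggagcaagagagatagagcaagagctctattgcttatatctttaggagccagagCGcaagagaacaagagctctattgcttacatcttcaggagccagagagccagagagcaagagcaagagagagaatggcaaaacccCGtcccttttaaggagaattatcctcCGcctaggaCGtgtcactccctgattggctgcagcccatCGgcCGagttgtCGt
IAPLTR3, chr7:48157360-48157659, nearest gene Mrgprb5 at 10298 bases: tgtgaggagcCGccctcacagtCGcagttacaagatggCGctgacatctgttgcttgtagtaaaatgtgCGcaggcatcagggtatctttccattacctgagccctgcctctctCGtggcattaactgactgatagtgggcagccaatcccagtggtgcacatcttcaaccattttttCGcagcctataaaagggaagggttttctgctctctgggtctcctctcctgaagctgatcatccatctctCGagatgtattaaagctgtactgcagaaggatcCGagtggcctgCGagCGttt
IAPLTR3-int, chr13:12829120-12829419, nearest gene Prl2c3 at 29041 bases: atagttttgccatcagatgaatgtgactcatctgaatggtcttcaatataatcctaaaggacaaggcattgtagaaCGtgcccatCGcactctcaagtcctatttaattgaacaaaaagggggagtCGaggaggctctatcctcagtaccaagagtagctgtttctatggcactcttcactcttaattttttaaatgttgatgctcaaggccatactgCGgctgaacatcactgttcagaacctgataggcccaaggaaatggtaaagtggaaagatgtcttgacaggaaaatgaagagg
IAPLTR2_Mm, chr4:141210116-141210415, nearest gene Rsg1 at 3365 bases: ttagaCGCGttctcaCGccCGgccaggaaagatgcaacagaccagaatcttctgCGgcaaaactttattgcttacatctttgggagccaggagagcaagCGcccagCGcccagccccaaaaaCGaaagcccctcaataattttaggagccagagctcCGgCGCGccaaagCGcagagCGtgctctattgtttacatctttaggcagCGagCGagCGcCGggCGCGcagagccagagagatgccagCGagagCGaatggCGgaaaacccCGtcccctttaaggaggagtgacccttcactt

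In these stretches the somatic IAPLTR2_Mm copy near Rsg1 held 23 CpG sites and the germline IAPLTR2_Mm copy near Gm10320 11. The IAPLTR2a2_Mm copy held 14, the IAPLTR3 copy 10 and the IAPLTR3-int copy 4.

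The deposited values, 1 per locus and library, are described by the study as counts after TMM normalization, the trimmed mean of M values. Every value was a whole multiple of 1 step per library and the values of a library summed to 235832 to 1421887. They were therefore read as TMM-scaled CPM, reads of a locus scaled to the size of its library, with each step taken as 1 read. This unit is an inference from the values, and every CPM value and recovered read given here rests on it. Between 246520 and 8161548 reads per library fell on LTR loci, the fewest in F3 P5 TBT library 5. Cell identity was checked through LTR loci lying inside marker genes. Germ cell genes (8 of 10 hold such a locus) summed to 6565 to 17928 CPM in F1 germline libraries and 14.4 to 184 in P6 libraries, but 927 to 13731 in F3 P4 and 127 to 10303 in F3 P5 libraries. The lowest, 127 in F3 P5 TBT library 5, lies within the range of P6 libraries, so that the germ cell genes do not bear out the label of this library, which is also the shallowest. Its Sertoli, Leydig and endothelial sums were 0 and its macrophage sum 36.4 CPM. The next lowest F3 germline library was P4 TBT library 5 at 927. Sertoli cell genes (4 of 6) summed to 637 to 971 CPM in P6 libraries and at most 81.0 in germline libraries. Leydig (2 of 5), endothelial (4 of 4) and macrophage (4 of 4) genes reached 204, 107 and 166 CPM in germline libraries, against 25.2 to 317, 33.5 to 192 and 61.6 to 123 in P6.

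Several libraries stood apart from their group in IAPLTR reads outside genes. TBT libraries 47-4 and 47-5 of F1 P4 cells were at 519 and 532 CPM, against 123 to 268 in the other 5 TBT libraries, and the P5 libraries of the same numbers at 1626 and 1448 were above the 433 to 986 of the rest. TBT libraries 7 and 8 of F1 P6 cells, at 947 and 1025, exceeded the 189 to 368 of their group. In F3, DMSO libraries 1 and 2 of P5 cells, at 7606 and 3989, and TBT libraries 5 and 9 of P4 cells, at 1073 and 2496, did the same. In the somatic and F3 libraries named here the share of all LTR reads that lay outside genes was high as well, at 6.79% and 6.95% in F1 P6 TBT libraries 7 and 8, against 0.999 to 1.82% in the other F1 P6 libraries. It was 23.5% and 27.9% in F3 P5 DMSO libraries 1 and 2 and 31.1% in the shallow TBT library 5, against 6.06 to 11.9% in the rest, and 11.4% and 12.1% in F3 P4 TBT libraries 5 and 9, against 2.05 to 5.10%. Its part in their IAPLTR level was not tested. In 47-4 and 47-5 it did not stand apart, at 2.35% and 2.06% of F1 P4 reads against 1.83 to 2.51% elsewhere.

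Over all 11384 loci, IAPLTR reads made up 0.368 to 1.24% of the LTR reads of a library. Most of them lay inside genes. Loci outside genes held 3.10 to 10.9% of the IAPLTR level in F1 P4 libraries, 11.1 to 27.9% in F1 P5, 5.00 to 23.3% in F1 P6, 4.73 to 44.1% in F3 P4 libraries, 17.8 to 62.6% in F3 P5 libraries and 6.06 to 9.15% in F3 P6. Neighbouring tested LTR loci in the same intron within 10 kb were paired where either or both were IAPLTR loci. Such pairs held the same number of reads in 92.7% of comparisons of a pair in a library in F1 P4 cells (517 pairs). The share was 70.1% in F1 P5, 81.0% in F1 P6, 90.2% among F3 P4, 63.2% in F3 P5 and 71.3% in F3 P6. With an exon between both loci the share was 9.73 to 23.6%, and outside genes 2.31 to 22.1%. Identical counts at both loci of such a pair show that the values of neighbouring intronic loci are not separate measurements. Transcription from an intronic LTR and the transcript of its host gene cannot be told apart in them. For this reason the level of a subtype is described below mainly over loci outside genes.

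Outside genes, IAPLTR RNA was lowest in F1 P4 cells and in P6 cells, higher in P5 than in P4 cells, and most variable in F3 germline cells. In F1 P4 cells it was 206 to 292 CPM in DMSO (median 223) and 123 to 532 in TBT libraries (median 260.4). In F1 P5 cells it was 569 to 869.5 CPM in DMSO (median 623) and 433 to 1626 in TBT libraries (median 745). Only the lowest F1 P5 library, TBT 45-3, was below the highest F1 P4 library, TBT 47-5. In F1 P6 cells the level was 231 to 262 CPM in DMSO (median 239.6) and 189 to 1025 in TBT libraries (median 339.6). F3 P4 libraries held 726 to 1885 CPM in DMSO (median 1116) and 229 to 2496 in TBT libraries (median 498), and F3 P5 libraries 979 to 7606 CPM in DMSO (median 3193) and 778 to 3319.9 in TBT libraries (median 1388). The library labelled F3 P5 TBT 5 was at that median, so that leaving it out does not change the range. In F3 the ranges of P4 and P5 cells overlapped widely, and within each the highest library was several-fold above the lowest. F3 P6 libraries were even, with 237 to 366 CPM in DMSO (median 247) and 226 to 299.98 in TBT libraries (median 251). Other IAP names, 15 with 17217 loci, gave 473 ± 97.7 CPM outside genes in F1 P4 cells (SD, n = 12), 1430.5 ± 406 in F1 P5 (n = 11), 1374 ± 482 in F1 P6 (n = 12), and 832 ± 228, 3004 ± 1607 and 1219 ± 145 in the P4, P5 and P6 cells of F3 (n = 9 each). IAPLTR loci over the same libraries were at 266 ± 130.2, 836 ± 380.3 and 386 ± 285 CPM in F1 and 1057 ± 756, 2604 ± 2174 and 264 ± 43.6 in F3. Without the libraries that stand apart they were at 214 ± 52.5, 681 ± 169.7 and 265 ± 53.1 CPM in F1 P4, P5 and P6 cells, 849.6 ± 605 among F3 P4 and 1692 ± 917 in F3 P5 cells, and the other IAP names at 437 ± 54.9, 1274 ± 215, 1191 ± 241, 811 ± 247 and 2390.0 ± 962. The germline and somatic tables, and the F1 and F3 tables, were normalized separately, so that values set across them are side by side and were not tested. In a sorted population, fewer cells that transcribe an element and less RNA per cell cannot be told apart.

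**Figure D1:**
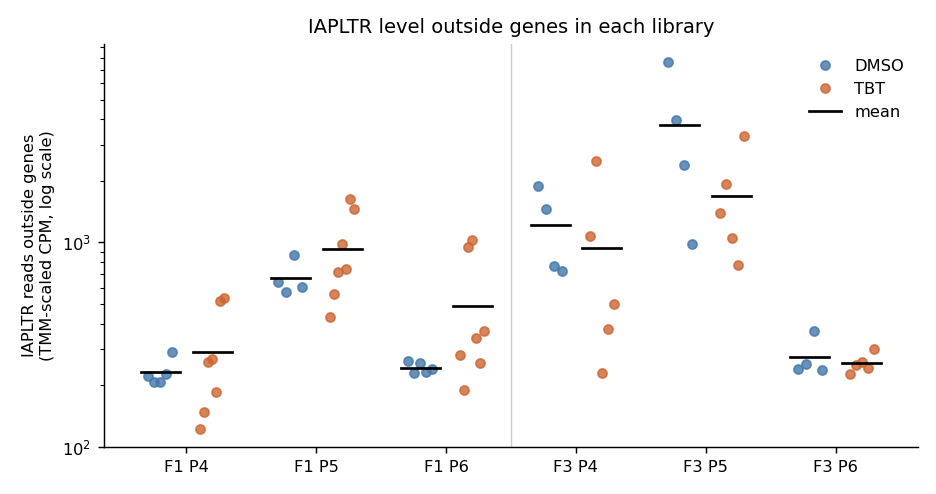
IAPLTR level outside genes, in TMM-scaled CPM on a log axis, of each of the 62 libraries by generation and population, with DMSO and TBT libraries as points of separate colours and a line at each group mean. F1 P4 libraries lie at 123 to 532 and F3 P5 libraries at 778 to 7606, and F1 P6 TBT libraries 7 and 8 lie far above the rest of their group.

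As a share of all LTR reads outside genes, which takes out differences in how many reads fall between genes, IAPLTR loci held 0.662 to 2.28% in F1 P4 libraries, 1.02 to 2.92% in F1 P5, 1.399 to 2.74% in F1 P6, 0.934 to 2.88% among F3 P4, 1.28 to 3.25% in F3 P5 and 1.69 to 2.55% in F3 P6. The largest IAPLTR share of an F1 germline library was that of 47-5 in both populations, 2.28% in P4 and 2.92% in P5 cells, and 47-4 followed at 1.92% and 2.23%. The rest of the F1 P4 libraries reached at most 1.21% and the rest of the F1 P5 libraries at most 1.62%. F1 P6 TBT libraries 7 and 8, the highest in CPM, had the lowest shares of their population, 1.399% and 1.49%. The excess of 47-4 and 47-5 was uneven among subtypes. In P4 cells IAPLTR2_Mm was at 153 and 189 CPM, against 20.1 to 52.8 in the other 5 TBT libraries, and IAPLTR2a at 84.1 and 88.3 CPM, against 9.60 to 34.8. IAPLTR3 did not stand apart, at 3.84 and 4.42 CPM, against 2.35 to 4.62. In P5 cells IAPLTR2_Mm was at 395 and 464 CPM, against 54.8 to 168, and IAPLTR2a at 189 and 194 CPM, against 38.6 to 84.3, with IAPLTR3 at 8.26 and 14.0 CPM, against 10.5 to 27.4. In F1 P6 TBT libraries 7 and 8 IAPLTR2a2_Mm was at 94.0 and 95.7 CPM, against 5.44 to 23.9 in the other 5 TBT libraries, IAPLTR3-int at 273 and 323 CPM, against 32.6 to 78.3, IAPLTR2a at 41.4 and 43.4 CPM, against 5.12 to 11.1, and IAPLTR1a_Mm at 52.6 and 62.5 CPM, against 5.76 to 14.2. IAPLTR3 at 96.0 and 113 CPM overlapped the others at 24.0 to 108.

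To compare subtypes of unequal number and length, levels outside genes were divided by the kilobases they cover, and are given for F1 P4, P5 and P6 and then F3 P4, P5 and P6 cells, as means over the libraries of a population. The IAPLTR2 group had the highest values in germline cells. IAPLTR2a was at 0.19, 0.484, 0.0738, 0.827, 1.66 and 0.0471 CPM per kb, IAPLTR2b at 0.18, 0.481, 0.116, 0.8, 1.41 and 0.0549, IAPLTR2_Mm at 0.141, 0.392, 0.167, 0.667, 1.503 and 0.118 and IAPLTR2a2_Mm at 0.141, 0.341, 0.0542, 0.494, 1.06 and 0.0258. These 4 exceeded the other 6 subtypes by mean level in P4 cells of both generations and P5 cells of both. IAPLTR4, an LTR with few complete copies, came next in P4 but not in P5 cells, at 0.0728, 0.192, 0.131, 0.298, 0.436 and 0.105. IAPLTR1_Mm, the LTR most often attached to internal sequence, was at 0.0259, 0.159, 0.0913, 0.0878, 0.572 and 0.0877, and IAPLTR1a_Mm at 0.0198, 0.104, 0.042, 0.0684, 0.324 and 0.0211. IAPLTR3 differed in the place of P6 cells, at 0.0141, 0.0516, 0.188, 0.0207, 0.0958 and 0.171, so that its somatic mean exceeded its germline means in both generations. A single copy, the one near Mrgprb5 shown above, held 74% of the IAPLTR3 level in F1 P6 cells, 90.7% without TBT libraries 7 and 8, and 98.8% in F3 P6 cells. The other IAPLTR3 loci were at 0.0116, 0.0478, 0.0489, 0.0159, 0.0893 and 0.00207 CPM per kb, with 0.0144 in F1 P6 cells without TBT libraries 7 and 8, so that in F3, and in F1 without those libraries, the higher somatic mean rests on that copy. The internal piece IAPLTR3-int was at 0.00877, 0.0606, 0.0551, 0.0181, 0.115 and 0.024. IAPLTR4_I was at 0.0218, 0.279, 0.181, 0.0474, 0.917 and 0.253, the highest in F3 P6 cells and among the lowest in P4 cells. Without the libraries that stand apart, IAPLTR2a, IAPLTR2b, IAPLTR2_Mm and IAPLTR2a2_Mm were at 0.133, 0.149, 0.0948 and 0.13 in F1 P4, 0.356, 0.39, 0.27 and 0.312 in F1 P5, 0.659, 0.613, 0.58 and 0.386 among F3 P4 and 1.01, 0.928, 0.832 and 0.715 in F3 P5 cells, and each still exceeded the other 6. In F1 P6 cells they were at 0.0417, 0.0728, 0.139 and 0.0258, and the other 6 at 0.0247 to 0.155. Neighbours in the germline order did not separate. In F3 P5 libraries, summed over its loci, IAPLTR2a ranged over 73.4 to 1085 CPM, IAPLTR2_Mm over 134 to 2479 and IAPLTR2b over 111 to 1151, a spread wider than the differences of their means.

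**Figure D2:**
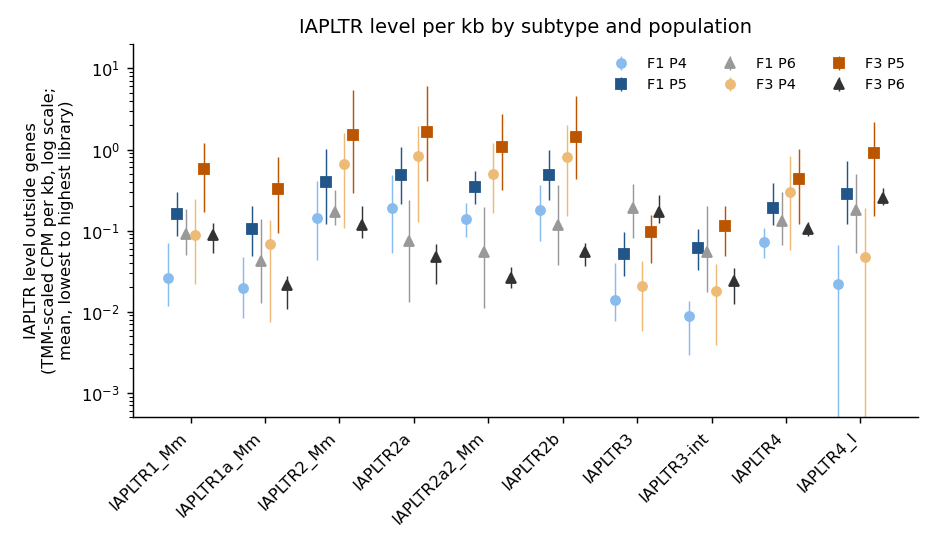
Mean level outside genes of each IAPLTR subtype in TMM-scaled CPM per kb on a log axis, by population, with bars from the lowest to the highest library. IAPLTR2a is highest in F3 P5 cells (1.66), IAPLTR3 has a higher mean in P6 than in germline cells, largely from 1 copy, and the IAPLTR4_I bars of P4 cells run off the lower edge, since some libraries are at 0.

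The reads outside genes were spread over many copies in germline cells, and in F3 P6 cells were concentrated in few. Of the 9118 loci, 1606 had a read in at least 1 library in F1 P4 cells, 4146 in F1 P5 and 2105 in F1 P6, with 1931, 4168 and 814 in the P4, P5 and P6 cells of F3. Loci holding 50% of the level numbered 156 in F1 P4, 375 in F1 P5, 62 in F1 P6, 138 among F3 P4, 332 in F3 P5 and 7 in F3 P6 cells. The F1 P6 values rest on TBT libraries 7 and 8, which held 930 and 1051 loci with a read, against 100 to 319 in the rest. Without them 997 loci had a read and 10 held 50% of the level. In the other populations, leaving out the libraries that stand apart gave 134 loci in F1 P4, 356 in F1 P5, 142 among F3 P4 and 327 in F3 P5 cells. The single highest locus held 19.1% of the level in F3 P6 cells and 1.20% in F3 P5 cells. Leaving out IAPLTR3-int and IAPLTR4_I, LTRs within 50 bases of an internal IAP piece contributed 30.9 ± 13.5 CPM in F1 P4 cells and those farther away, solitary LTRs among them, 219 ± 112. In F1 P5 cells these were 183 ± 72.3 and 531 ± 267, in F3 P4 cells 115 ± 82.6 and 908 ± 660.4, and in F3 P5 cells 596 ± 417 and 1738 ± 1630.0. In P6 cells they were 167 ± 102 and 113 ± 73.6 in F1, and 108 ± 21.3 and 94.5 ± 20.4 in F3 (SD over libraries). Without the libraries that stand apart the values beside and away from internal pieces were 25.7 ± 6.80 and 174 ± 45.8 in F1 P4, 155 ± 41.2 and 419 ± 109 in F1 P5, 124 ± 17.5 and 83.0 ± 25.1 in F1 P6, 91.9 ± 62.8 and 728 ± 527 among F3 P4, and 413 ± 192 and 1070.0 ± 643 in F3 P5 cells. Copies whose sequence is shared with others can lose reads in alignment. Words of 75 bases were counted among all IAPLTR loci and not over the genome, so a word called unique may occur elsewhere. Of the loci outside genes, 4009 had no unique word, and 27.8% of them had a read in F1 P5 cells. The share was 67.1% of the 711 loci with at least 75% but not all words unique and 48.9% of the 235 with all unique. The median share of unique words was 0% in IAPLTR1_Mm, IAPLTR1a_Mm, IAPLTR3 and IAPLTR3-int, 28.9% in IAPLTR2_Mm, 54.4% in IAPLTR2b and 94.1% in IAPLTR4_I. The 4 subtypes at 0% were among the 6 with lower germline levels per kb, and the part of this in their order was not tested.

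The IAPLTR2a2_Mm copy near Gm20387, 504 bases on chr6 with 84.4% unique words, was read in germline cells and hardly in somatic cells. In F1 P4 cells it was at 5.07, 10.9, 11.4, 19.2 and 21.2 CPM in the 5 DMSO libraries and 4.69 to 33.0 with a median of 13.9 in the 7 TBT libraries, and in F1 P5 cells at 7.70, 8.24, 13.9 and 21.8 in the 4 DMSO libraries and 5.56 to 23.9 with a median of 9.18 in the 7 TBT libraries. F3 P4 cells had 27.1, 49.9, 69.0 and 70.6 in the 4 DMSO libraries and 18.1, 26.2, 32.8, 54.4 and 75.2 in the 5 TBT libraries, and F3 P5 cells 15.1, 23.1, 23.3 and 35.5 in the 4 DMSO libraries and 7.38, 32.5, 37.2, 41.0 and 66.9 in the 5 TBT libraries. In P6 cells its values were 0 to 0.679 in F1 and 0 to 0.394 in F3, so that each germline library was above each somatic one. The IAPLTR2_Mm copy near Gm10320 was high in some F3 germline libraries only. It was at 9.35, 9.81, 24.4 and 35.6 in the 4 DMSO libraries and 0, 1.33, 3.73, 4.69 and 25.8 in the 5 TBT libraries in F3 P4 cells and at 7.16, 22.4, 51.0 and 118 in the 4 DMSO libraries and 0, 1.93, 4.98, 5.16 and 22.8 in the 5 TBT libraries in F3 P5 cells. The F1 values were 0.493 to 10.9 in P4 and 1.59 to 10.2 in P5 cells, and P6 libraries held at most 0.992. In F3 P5 cells 2 of the 4 DMSO libraries were above the highest TBT library, and the groups overlapped.

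The somatic copies showed the reverse. The IAPLTR3 copy near Mrgprb5, 326 bases with 96.0% unique words, was at 25.8, 26.0, 28.9, 36.4 and 45.5 CPM in the 5 DMSO libraries and 24.0 to 102 with a median of 44.7 in the 7 TBT libraries in F1 P6 cells and at 39.2, 39.7, 42.9 and 82.6 in the 4 DMSO libraries and 36.9, 48.1, 50.3, 53.6 and 62.1 in the 5 TBT libraries in F3 P6 cells. Germline libraries held 0 to 3.70 in F1 P4, 0.318 to 2.15 in F1 P5, 0 to 9.33 among F3 P4 and 0 to 12.8 in F3 P5 cells, with DMSO library 1 highest in both F3 germline populations. The IAPLTR3-int piece near Prl2c3, 2509 bases long, was at 16.9, 24.2, 25.7, 25.8 and 27.5 in the 5 DMSO libraries and 15.4 to 47.8 with a median of 24.6 in the 7 TBT libraries in F1 P6 and 14.2, 22.1, 23.4 and 24.1 in the 4 DMSO libraries and 22.9, 23.4, 29.0, 29.8 and 39.3 in the 5 TBT libraries in F3 P6 cells, and at 0 in every P4 library of both generations. Its P5 values were 0 to 8.78 in F1 and 0 to 21.3 in F3. The IAPLTR2_Mm copy near Rsg1, which has 0% unique words and lies beside internal sequence, was at 26.0, 26.1, 26.4, 28.3 and 28.8 in the 5 DMSO libraries and 15.3 to 38.5 with a median of 26.0 in the 7 TBT libraries in F1 P6 and 19.9, 20.03, 23.2 and 38.0 in the 4 DMSO libraries and 9.90, 11.999, 17.8, 19.1 and 27.3 in the 5 TBT libraries in F3 P6 cells, with at most 1.85 in germline libraries. With none of its words unique, reads of this copy and of others like it cannot be told apart.

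**Figure D3:**
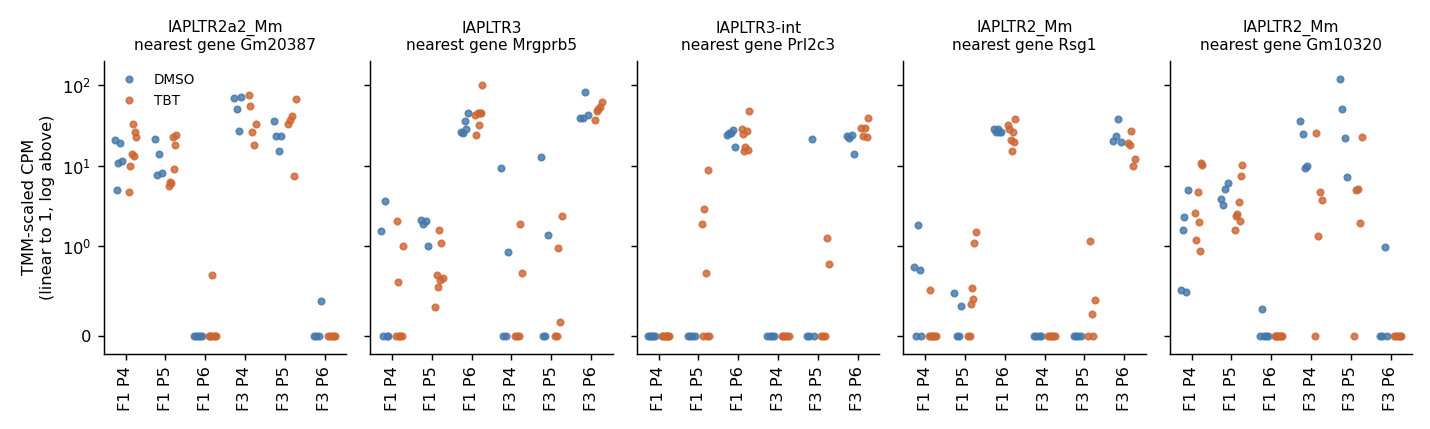
Level of the 5 highest IAPLTR loci outside genes in every library, in TMM-scaled CPM (linear up to 1 and logarithmic above), by population, with DMSO and TBT libraries in separate colours. The IAPLTR2a2_Mm copy near Gm20387 lies at 18.1 to 75.2 in F3 P4 and 0 to 0.394 in F3 P6 libraries, and the IAPLTR3 copy near Mrgprb5 at 24.0 to 102 in F1 P6 and 0 to 3.70 in F1 P4 libraries.

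Inside genes, the highest IAPLTR locus was an IAPLTR2a2_Mm copy in an exon of Ppib, a peptidyl-prolyl isomerase of the endoplasmic reticulum, at chr9:66064738-66065156. It was at 45.2 to 133 CPM in F1 P4, 113 to 221 in F1 P5, 167 to 331 in F1 P6, 70.4 to 276 among F3 P4, 28.7 to 475 in F3 P5 and 146 to 188 in F3 P6 libraries. The next were 2 IAPLTR2_Mm copies in introns of Atp6v1e1, a subunit of the vacuolar proton pump, at chr6:120812262-120812722 and chr6:120816925-120817386. The first was at 55.7 to 121 CPM in F1 P4 libraries and the other at 55.7 to 120.3, and in F1 P6 libraries both were at 16.9 to 40.1 and 16.9 to 40.1, which is the equality of neighbouring intronic loci described above.

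P5 germline cells were compared with P4 germline cells within each generation, over DMSO and TBT libraries with exposure in the model. Outside genes, all 10 IAPLTR subtype totals of F1 were higher in P5 cells at a false discovery rate (FDR) of 0.05 in limma, but so were nearly all LTR names, with 94.1% of 589 called. In F3, 7 of 10 were higher, beside 59.7% of 603. The median difference of the IAPLTR totals was 1.68 on the log2 scale in F1 and 1.64 in F3, and that of all LTR names 1.34 and 1.399. The share of all LTR reads outside genes moved in the same direction, from 1.83 to 2.51% in F1 P4 to 3.84 to 7.34% in F1 P5 libraries and from 2.05 to 12.1% to 6.06 to 31.1% in F3, and its part in these differences was not tested. Of the LTR loci inside marker genes, those of germ cell genes summed to 9006 to 17928 CPM in F1 P4 and 6565 to 13821 in F1 P5 libraries, with means of 1937 and 1336 for Ddx4, a germ cell RNA helicase. Sertoli cell genes summed to 6.66 to 46.2 and 16.5 to 81.0, and endothelial genes to 12.8 to 40.6 and 26.8 to 93.0, of which the receptor Kdr was at means of 0.155 and 0.246. Leydig cell genes summed to 3.63 to 204 and 3.03 to 50.2 and macrophage genes to 72.0 to 135 and 75.3 to 122. In F3 the P4 and P5 libraries held 927 to 13731 and 127 to 10303 for germ cell, 0 to 18.9 and 0 to 35.5 for Sertoli cell, and 0 to 84.6 and 0 to 107 for endothelial genes. The part of these markers in the rise was not tested.

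By estimate the rise was greatest in the internal pieces and in IAPLTR1, and differences between subtypes were not tested. IAPLTR4_I outside genes was at 0 to 5.99 in P4 (median 0.957) and 10.8 to 65.6 in P5 libraries (median 22.6) in F1, a log2 difference of 3.85 ± 0.42 (SE). In F3 it was at 0 to 17.2 in P4 (median 2.81) and 13.4 to 196 in P5 libraries (median 49.8), a difference of 4.63 ± 0.66. The F1 populations did not overlap, and the F3 populations did. IAPLTR3-int was at 4.75 to 21.9 in P4 (median 14.9) and 52.5 to 169.6 in P5 libraries (median 97.1) in F1 (2.78 ± 0.22). In F3 it was at 6.39 to 62.6 in P4 (median 23.5) and 79.6 to 329 in P5 libraries (median 214) (2.80 ± 0.45), and was the only subtype without overlap in both generations. IAPLTR1_Mm was at 4.45 to 26.8 in P4 (median 8.12) and 32.4 to 115 in P5 libraries (median 52.4) in F1 (2.65 ± 0.26), without overlap, and at 8.44 to 94.4 in P4 (median 30.6) and 64.9 to 460.4 in P5 libraries (median 180.2) in F3 (2.70 ± 0.46), with overlap. IAPLTR1a_Mm rose by 2.41 ± 0.24 in F1 and 2.24 ± 0.51 in F3, and IAPLTR3 by 1.86 ± 0.26 and 2.23 ± 0.59.

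The estimates of the IAPLTR2 group were smaller. In F1 IAPLTR2_Mm rose by 1.497 ± 0.30, IAPLTR2a by 1.45 ± 0.29, IAPLTR2b by 1.41 ± 0.22 and IAPLTR2a2_Mm by 1.25 ± 0.16, and IAPLTR4 rose by 1.37 ± 0.20. In F3 IAPLTR2_Mm rose by 1.05 ± 0.46 (adjusted p = 0.0456) and IAPLTR2a2_Mm by 1.03 ± 0.40 (adjusted p = 0.0277). IAPLTR2a was at 0.95 ± 0.46 (adjusted p = 0.0705), IAPLTR2b at 0.80 ± 0.43 (0.11) and IAPLTR4 at 0.67 ± 0.53 (0.268), which did not pass. When each of the 18 F3 libraries was left out in turn, IAPLTR1_Mm, IAPLTR1a_Mm, IAPLTR3, IAPLTR3-int and IAPLTR4_I passed in all 18 fits, while IAPLTR2a2_Mm passed in 11, IAPLTR2_Mm in 8, IAPLTR2a in 3, IAPLTR2b in 1 and IAPLTR4 in 0. Without library numbers 1, 2, 5 and 9, which hold the fewest reads or the highest IAPLTR levels, all 10 passed. In F1, all 10 passed in each such fit, also without numbers 47-4 and 47-5. The share of all LTR names called was not counted in the fits with libraries left out. Over all libraries it was 59.7% in F3 and 94.1% in F1.

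Over all loci, where reads inside genes weigh most, the differences were smaller. In F1, 6 of 10 IAPLTR totals were called, beside 67.5% of all LTR names, of which IAPLTR4_I (3.28 ± 0.32), IAPLTR3-int (2.41 ± 0.17), IAPLTR3 (0.67 ± 0.07), IAPLTR2a2_Mm (0.48 ± 0.06) and IAPLTR2b (0.35 ± 0.09) were higher in P5 cells and IAPLTR1_Mm (-0.14 ± 0.04) was lower. IAPLTR1_Mm thus differed in direction between all loci and loci outside genes, and it was also higher, at 0.0118 on the log2 scale, after each library was rescaled to the same total. In F3, 2 of 10 were called, beside 3.02% of all names, IAPLTR4_I (4.32 ± 0.65) and IAPLTR3-int (2.66 ± 0.40). The effect of TBT was compared between P5 and P4 cells with an interaction term, which limma called for 0 IAPLTR totals in F1 and F3, beside 0% and 0% of all names, and 0 IAPLTR totals at an unadjusted p under 0.05 in either, beside 2.41% and 0.302%.

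**Figure D4:**
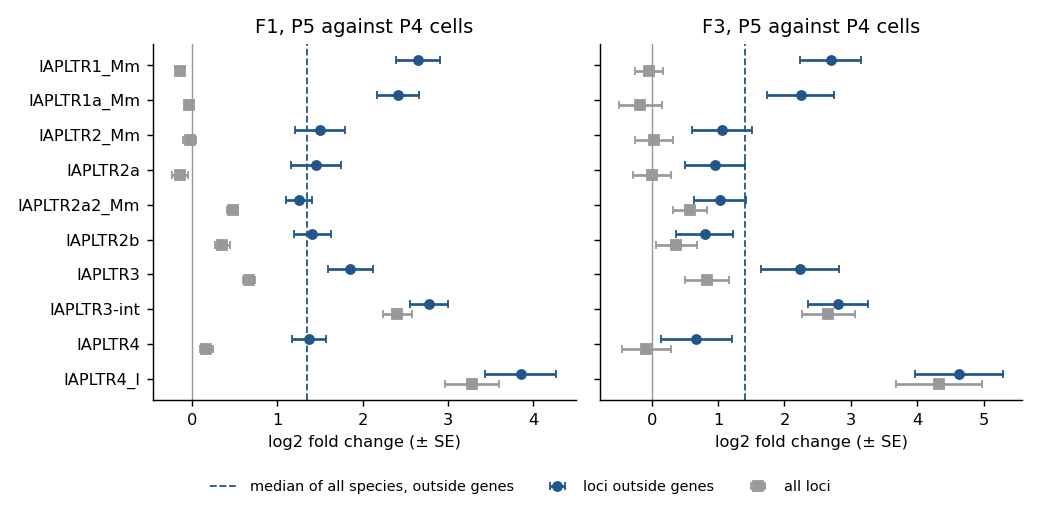
Log2 fold change of P5 over P4 cells for each IAPLTR subtype total in F1 and F3, with bars for the SE, over loci outside genes (blue) and over all loci (grey). The dashed line marks the median of all LTR names outside genes, 1.34 in F1 and 1.399 in F3, and IAPLTR4_I lies farthest above it.

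Of single loci with enough reads to test, 170 of 464 differed between P5 and P4 cells in F1 (73 higher and 97 lower), beside 39.3% of all LTR loci. Of all LTR loci, 17.6% were called higher and 21.6% lower. After each library was rescaled to the same total the split of IAPLTR loci turned to 87 higher and 51 lower, and that of all LTR loci turned as well, to 20.7% higher and 11.5% lower. The 18 called loci outside genes, of 43 tested, were all higher in P5 cells, a share near that of all LTR loci outside genes, of which 45.6% were called, 42.5% higher and 3.18% lower. Of 421 tested loci inside genes 55 were higher and 97 lower, and of all LTR loci inside genes 39% were called, 16.5% higher and 22.5% lower. In F3, 7 of 792 were called, all higher and all among the 332 tested outside genes, beside 1.01% of all LTR loci. Without the library labelled F3 P5 TBT 5, 18 of 803 were called, beside 3.06% of all LTR loci, and without F3 P5 TBT library 9, 2 of 793, beside 0.4%. Outside genes 4.47% of all LTR loci were called, every one higher, and inside genes 0.465%. Outside genes, all 6 tested IAPLTR3-int loci were called higher in F1, with a median of 3.20 on the log2 scale. Loci entered by their mean over P4 and P5 libraries together, so loci low in P4 cells entered through P5 cells. All IAPLTR3-int loci outside genes summed to 4.75 to 21.9 CPM in F1 P4 libraries. The direction of the tested ones, and of other loci low in P4 cells, is thus in part set by the filter. The F1 loci described here are the called ones of greatest change whose P4 and P5 libraries did not overlap, and they lay in introns. An IAPLTR2b copy in St6galnac3, a sialyltransferase gene, at chr3:153255629-153255960 was at 0 to 2.37 CPM in P4 and 2.39 to 7.24 in P5 libraries, which did not overlap, a change of 2.49 ± 0.39 on the log2 scale (SE), adjusted p = 4.67e-06. A pair of IAPLTR2_Mm copies in introns of Mov10l1, an RNA helicase of the piRNA pathway, at chr15:89039771-89040260 and chr15:89036369-89036858, was at 6.16 to 21.1 and 6.16 to 21.1 in P4 and at 30.4 to 69.5 and 30.0 to 69.5 in P5 libraries. Both rose without overlap, by 1.98 ± 0.15 and 1.97 ± 0.15. Lower in P5 cells were an IAPLTR2_Mm copy in Oxct1, a ketone body enzyme gene, at chr15:4126625-4127076 (62.7 to 87.4 in P4 and 34.8 to 59.8 in P5 libraries, -0.72 ± 0.09 on the log2 scale (SE), adjusted p = 2.26e-07), and 2 IAPLTR1_Mm copies in Ttc27 at chr17:74759071-74759439 and chr17:74765910-74766278 (-0.68 ± 0.10 and -0.68 ± 0.10). Whether these 6 values belong to the LTRs or to their host genes cannot be told apart.

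The F3 loci lay outside genes. An IAPLTR1_Mm copy at chr2:153777900-153778301, 1630 bases from Efcab8, was at 0, 0.978, 1.402 and 5.37 CPM in the 4 DMSO libraries and 0, 0, 0.469, 0.932 and 2.65 in the 5 TBT libraries in P4 cells and at 7.75, 9.23, 25.6 and 106 in the 4 DMSO libraries and 6.26, 9.67, 14.8, 18.4 and 23.0 in the 5 TBT libraries in P5 cells (4.14 ± 0.84 on the log2 scale (SE), adjusted p = 0.00912). An IAPLTR1a_Mm copy at chr16:13106573-13106909, 2775 bases from the DNA repair gene Ercc4 and beside internal IAP sequence, was at 0, 0, 0 and 0.467 in the 4 DMSO libraries and 0, 0, 0, 0.166 and 0.466 in the 5 TBT libraries in P4 and at 1.85, 2.46, 3.43 and 4.29 in the 4 DMSO libraries and 1.96, 4.49, 4.81, 5.27 and 14.3 in the 5 TBT libraries in P5 cells (3.59 ± 0.68 on the log2 scale (SE), adjusted p = 0.00577). As in F1, both were chosen among called loci whose P4 and P5 libraries did not overlap, so that the separation follows from the choice.

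TBT libraries were then compared with DMSO libraries within each population. No IAPLTR locus and no IAPLTR subtype total passed an FDR of 0.05 in limma in any of the 6 populations. Of all LTR loci, 0, 0.0111, 0.00341, 0, 0 and 0.0343% were called in P4, P5 and P6 cells of F1 and then of F3, and of LTR name totals 0% in each. Among the tested IAPLTR loci, which numbered 414, 549, 434, 573, 1022 and 523 in the same order, 29, 38, 20, 14, 34 and 43 had an unadjusted p under 0.05, beside 7.09, 6.77, 3.68, 1.66, 1.03 and 7.96% of all LTR loci. Of the 10 totals, 2, 0, 2, 1, 0 and 0 did, beside 7.68, 4.8, 6.36, 3.02, 0 and 9.37% of all names. The quasi-likelihood test of edgeR on the recovered reads called 0 IAPLTR loci in all 6, beside 0, 0.00369, 0.00341, 0, 0 and 0.062% of all LTR loci. Its likelihood ratio test called 0, 3, 1, 0, 35 and 1, beside 0.0947, 0.258, 0.0523, 0.0036, 3.43 and 0.338% of all LTR loci. The 35 of 1022 in F3 P5 cells are a share near that of all loci.

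Over all loci, the subtype totals with the highest and lowest differences were as follows. In F1 P4 cells IAPLTR2a, the highest, was at 569 to 702 in DMSO and 582 to 933 in TBT libraries (medians 600.4 and 692) CPM, a log2 difference of 0.22 ± 0.09, and the lowest was IAPLTR4_I at -0.06 ± 0.48. The summed endothelial marker level of F1 P4 cells was 12.8 to 23.8 CPM in DMSO and 31.2 to 40.6 in TBT libraries, without overlap, and its part was not tested. In F1 P5 cells IAPLTR4_I was at 20.1 to 32.7 in DMSO and 14.0 to 78.5 in TBT libraries (medians 22.2 and 29.0) (0.36 ± 0.40) and IAPLTR3 lowest at -0.12 ± 0.10. In F1 P6 cells all 10 differences were above 0, beside 508 of the 660 LTR names, from 0.03 ± 0.07 for IAPLTR2b to 0.87 ± 0.41 for IAPLTR3-int, which was at 50.4 to 74.1 in DMSO and 62.3 to 355 in TBT libraries (medians 67.5 and 94.1). Its ranges overlapped, and the top of the TBT range came from libraries 7 and 8. In F3 P4 cells IAPLTR4_I was at 4.67 to 29.7 in DMSO and 0 to 3.99 in TBT libraries (medians 9.43 and 1.36), a log2 difference of -2.84 ± 1.06 (adjusted p = 0.507), and IAPLTR3-int was highest at 0.24 ± 0.57. In F3 P5 cells 9 of 10 differences were below 0, where 145 of 663 LTR names were above 0, with IAPLTR4_I lowest at -1.11 ± 0.79 and IAPLTR3 at 0.30 ± 0.57. In F3 P6 cells they lay between -0.05 ± 0.04 for IAPLTR2_Mm and 0.16 ± 0.13 for IAPLTR3-int.

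Outside genes, none of the differences between TBT and DMSO libraries passed (adjusted p of at least 0.256). The median of the 10 IAPLTR totals, beside that of all LTR names, was 0.07 and -0.08 in F1 P4, 0.37 and 0.26 in F1 P5, 0.54 and 1.22 in F1 P6, -0.55 and -0.07 among F3 P4, -0.99 and -0.42 in F3 P5, and -0.01 and 0.04 in F3 P6 cells. Without TBT libraries 47-4 and 47-5 the IAPLTR median was -0.39 in F1 P4 cells, with 10 of 10 totals lower in place of 4, and 0.08 in F1 P5 cells, with 3 lower in place of 0. Without TBT libraries 7 and 8 it was 0.04 in F1 P6 cells, with 5 of 10 higher in place of 10. Tested one by one, IAPLTR loci outside genes went the other way in F1 P6 cells, with a median of -0.31 (8 of 25 higher), beside -0.06 for all tested LTR loci outside genes (359 of 797 higher). Such loci had a median of 0.11 (12 of 21 higher) in F1 P4, 0.42 (64 of 100) in F1 P5 and -0.11 (15 of 34) in F3 P6 cells, beside 0.04, 0.34 and 0.10 for all LTR loci outside genes. With single libraries left out, the median of the totals was 0.57 without TBT 45-3, 0.18 without 47-4 and 0.23 without 47-5 in F1 P5 cells, and 0.35 without TBT 7 and 0.32 without TBT 8 in F1 P6 cells. It ran from -0.05 to 0.18 in F1 P4 and from -0.12 to 0.04 in F3 P6 cells. In F3 P5 cells, 9 of 10 totals were lower in TBT libraries, from -1.41 ± 0.60 for IAPLTR2_Mm to -0.54 ± 0.58 for IAPLTR3-int, with IAPLTR3 at 0.20 ± 0.89. Without DMSO library 1 the median was -0.54 and without DMSO library 4 it was -1.52, with 9 lower in both. Without DMSO libraries 1 and 2 it was -0.15 and 7 were lower, and without DMSO library 2 and TBT library 5, which have the fewest reads, it was -0.59 and 9 were lower. In F3 P4 cells IAPLTR2_Mm was at 186 to 736 CPM in DMSO and 48.6 to 697 in TBT libraries (-1.27 ± 0.63). The median of the 10 totals, -0.55 over all libraries with 9 lower, was -0.19 with 6 lower without TBT library 6 and -1.005 with 9 lower without TBT library 9. Without TBT libraries 5 and 9 it was -1.46, all 10 lower, with the smallest adjusted p at 0.21. In F3 P4 cells, tested IAPLTR loci outside genes had a median of -0.57 (54 of 195 higher), and all tested LTR loci outside genes 0.03 (3893 of 7641 higher). Over all loci, inside genes included, the median of all LTR loci was -0.69, and -0.50 after each library was rescaled to the same total. In F3 P5 cells, tested IAPLTR loci outside genes had a median of -1.05 (108 of 505 higher), and all tested LTR loci outside genes -0.51. Loci entered by their mean over both groups, so a few high libraries could bring loci in. Inside genes included, 1022 IAPLTR loci were tested in F3 P5 cells with all libraries and 733 without DMSO libraries 1 and 2. The part of this filter in the single-locus medians, here and in the other populations, was not tested.

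**Figure D5:**
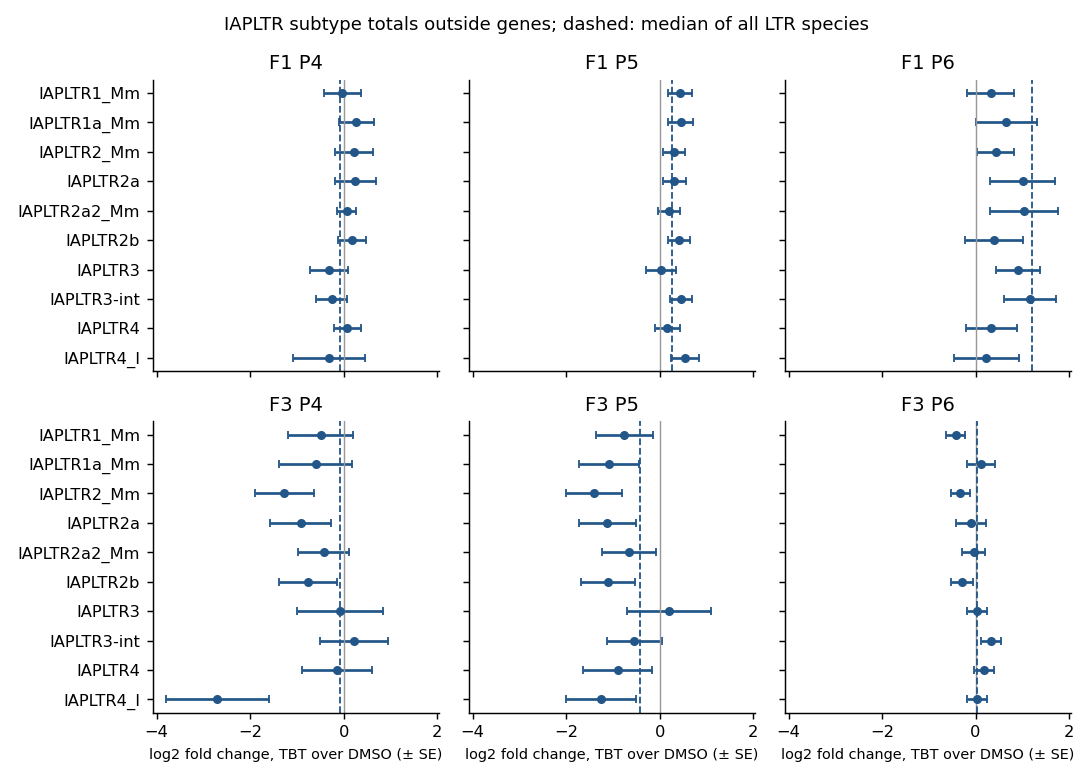
Log2 fold change of TBT over DMSO libraries for each IAPLTR subtype total outside genes in the 6 populations, with bars for the SE and a dashed line at the median of all LTR names. The bars are narrow in F3 P6 cells and widest for IAPLTR4_I in F3 P4 cells, and no total passed an FDR of 0.05.

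Loci with the smallest p-values are given with their values, none having passed. In F1 P5 cells a short IAPLTR3-int piece at chr3:12662716-12662886, 171 bases long with every word unique, was at 0, 0, 0 and 0.336 CPM in the 4 DMSO libraries and 0.682 to 4.12 with a median of 2.17 in the 7 TBT libraries (2.81 ± 0.62, adjusted p = 0.186). The groups did not overlap. An IAPLTR2a copy at chr13:6184204-6184623 was at 0, 0, 0.233 and 0.336 CPM in the 4 DMSO libraries and 0.635 to 4.35 with a median of 1.94 in the 7 TBT libraries (2.44 ± 0.65, adjusted p = 0.351). Lower in TBT libraries were an IAPLTR1_Mm piece in Ccdc73 (-0.79 ± 0.25, adjusted p = 0.481) and an IAPLTR4 copy in Zfp980 (-0.68 ± 0.25, adjusted p = 0.584). In F1 P4 cells, 2 IAPLTR1a_Mm copies in Nudcd3 were at 0.76 ± 0.24, adjusted p = 0.624 and 0.76 ± 0.25, adjusted p = 0.625, an IAPLTR2a2_Mm copy in Lhfp at -1.59 ± 0.56, adjusted p = 0.664, and an IAPLTR2_Mm copy in Ecd at -0.65 ± 0.26, adjusted p = 0.685. In F1 P6 cells, 2 IAPLTR2_Mm pieces in Sqor, a sulfide oxidizing enzyme gene, had the same values, 0.90 ± 0.29, adjusted p = 0.999, with an IAPLTR1a_Mm copy in Rab3gap2 at -1.01 ± 0.36, adjusted p = 0.999 and an IAPLTR2_Mm copy in Gmds at -0.79 ± 0.28, adjusted p = 0.999.

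In F3 P4 cells an IAPLTR2a2_Mm copy at chrX:130708016-130708536 was at 4.91, 7.62, 8.31 and 13.0 CPM in the 4 DMSO libraries and 0, 0, 0.235, 0.498 and 1.397 in the 5 TBT libraries (-3.95 ± 1.00, adjusted p = 0.866), without overlap. An IAPLTR2_Mm copy near Bmf at chr2:118557900-118558375 was at 0.935, 3.39, 3.91 and 9.35 CPM in the 4 DMSO libraries and 0 in all 5 TBT libraries. Of the higher loci, those of smallest p were an IAPLTR2a2_Mm copy at chr2:82850192-82850618, at 0 CPM in all 4 DMSO libraries and 0, 0.332, 0.469, 6.77 and 13.6 in the 5 TBT libraries (adjusted p = 0.866) and an IAPLTR2a copy in Cachd1, at 0, 0, 0 and 0.467 CPM in the 4 DMSO libraries and 0, 1.35, 1.397, 1.49 and 10.2 in the 5 TBT libraries (2.29 ± 1.16, adjusted p = 0.866). The highest TBT values of the first came from libraries 5 and 9, which have the fewest reads. In F3 P5 cells an IAPLTR2_Mm copy 10056 bases from Jdp2, a transcription factor gene, at chr12:85649934-85650355, was at 4.16, 9.41, 21.2 and 50.6 CPM in the 4 DMSO libraries and 0, 0, 0.801, 1.93 and 2.95 in the 5 TBT libraries (-4.06 ± 1.47, adjusted p = 1), without overlap. Another near Gm10645 was at 0.923, 1.71, 7.33 and 21.2 CPM in the 4 DMSO libraries and 0, 0, 0, 0 and 0.586 in the 5 TBT libraries (-3.73 ± 1.36, adjusted p = 1). Of the higher loci, those of smallest p were an IAPLTR2a2_Mm copy near Gm32567, at 0, 0, 0 and 1.15 CPM in the 4 DMSO libraries and 1.44, 4.17, 6.70, 7.03 and 8.81 in the 5 TBT libraries (3.67 ± 1.38, adjusted p = 1) and an IAPLTR2a copy in Gm10827, at 0, 0, 0 and 0.462 CPM in the 4 DMSO libraries and 1.23, 1.28, 1.46, 3.61 and 19.1 in the 5 TBT libraries (3.20 ± 1.36, adjusted p = 1). In F3 P6 cells the IAPLTR2a2_Mm copy in Lhfp was at 13.5, 19.1, 21.3 and 24.1 CPM in the 4 DMSO libraries and 26.1, 27.0, 27.6, 27.8 and 32.3 in the 5 TBT libraries (0.55 ± 0.14, adjusted p = 0.268), without overlap, and in F1 P4 cells the same copy was at the difference below 0 given above. An IAPLTR1_Mm copy in Slc38a6, an amino acid transporter gene, was at 0.45, 0.793, 1.18 and 1.49 CPM in the 4 DMSO libraries and 2.21, 2.44, 2.69, 2.76 and 2.79 in the 5 TBT libraries (1.32 ± 0.37, adjusted p = 0.293). An IAPLTR1_Mm copy in an intron of Cpne8 was at 0.985, 1.80, 3.17 and 3.47 CPM in the 4 DMSO libraries and 0, 0.207, 0.62, 0.679 and 0.9 in the 5 TBT libraries (-2.02 ± 0.56, adjusted p = 0.293) and another in an exon of Cpne8 at 3.38, 3.55, 3.57 and 7.44 CPM in the 4 DMSO libraries and 0.551, 1.87, 2.17, 2.28 and 2.70 in the 5 TBT libraries (-1.20 ± 0.37, adjusted p = 0.336). In F3 P6 cells endothelial marker sums were 96.0 to 129 CPM in DMSO and 128 to 160 in TBT libraries, and Leydig sums 36.5 to 62.8 and 25.2 to 36.6. Germ cell sums were 14.4 to 184 and 16.3 to 22.8, Sertoli sums 738 to 971 and 795 to 906, and macrophage sums 83.1 to 113 and 76.4 to 87.2. Each pair of ranges overlapped, and the part of these markers in the differences was not tested.

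DNA methylation of IAPLTR loci was read in P6 cells only, from methyl-CpG binding domain (MBD) sequencing, counted in windows of 100 bases. The F1 table held 265 windows that shared any base with an IAPLTR locus, in 220 loci, and in F3 there were 300 in 248 loci, a small part of the 11384 loci. These windows held a median of 4 CpG sites, against 0 in all windows, and a median of 17.6 counts in F1 and 21.2 in F3, against 6 and 4.92 in all. IAPLTR windows took 0.361 to 0.452% of the counts of the 3 DMSO and 0.382 to 0.438% of the 4 TBT libraries in F1, and 0.452 to 0.57% of the 5 DMSO and 0.402 to 0.686% of the 7 TBT libraries in F3, and the groups overlapped in both. The quasi-likelihood test of edgeR called 0 of 193 tested IAPLTR windows in F1, beside 0.0318% of all windows, and 0 of 235 in F3, beside 0%. At an unadjusted p under 0.05 there were 13 and 22, beside 5.01% and 5.19% of all windows, and DESeq2 called 0 in both. The median log2 difference of TBT over DMSO libraries was -0.02 in F1, with 90 of 193 windows higher, and 0.15 in F3, with 186 of 235 higher. Over all tested F3 windows with at least 3 CpG sites it was 0.05, with 5381 of 8991 higher. The share of counts in such windows was 16.8 to 19.8% in DMSO and 14.7 to 21.4% in TBT libraries of F3, and TBT libraries 10 and 12 were highest both in it and in IAPLTR windows, and its part in the difference was not tested.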

How the data were processed

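RNA of sorted testis cells was measured in 62 libraries and MBD-enriched DNA of P6 cells in 19. For RNA the authors deposited a normalized signal per LTR locus, described as TMM-normalized counts and read here, from its whole steps per library, as CPM on the TMM scale, made from paired 75-base reads of oligo(dT)-primed SMARTer cDNA, trimmed with Trim Galore, aligned with STAR to GRCm38 (mm10) and counted with a modified ERVmap at RepeatMasker LTR loci. How reads of several equal positions were treated is not given in the sources used here. For MBD the authors deposited counts per 100-base window, not normalized, with the CpG sites of each window, which is the other column used here. The deposited tables hold 0 columns of samples outside the labels.

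Groups followed the labels. Whole reads were recovered as multiples of the smallest value above 0 (tolerance 0.01). Loci with a mean of at least 5 reads (units) entered limma 3.58.1 in R 4.3.3 on the scale log2(value + 1 unit), with a trended variance and the Benjamini-Hochberg method over all LTR loci at an FDR of 0.05, so fold changes of low loci are understated, and totals per name were tested over all names. This limma test was used because the values are not raw counts; edgeR 4.0.16 tests on the recovered reads were alternatives. For MBD counts, windows kept by filterByExpr entered edgeR's quasi-likelihood test after TMM scaling, with DESeq2 1.42.0 as an alternative. Loci were placed by GENCODE M21 on GRCm38.p6 with Python 3.11.15, numpy 2.4.6, pandas 2.3.3 and bedtools 2.31.1, and figures drawn with matplotlib 3.10.9. The tests were tested on simulated data.

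Loci were named by rule: the 5 outside and 3 inside genes with the highest mean over populations, the 2 higher and 2 lower loci of smallest p per population for TBT, and up to 3 higher and 3 lower called loci without overlap and of greatest change for P5 against P4. The members and lists were chosen with earlier results of these data known. Other alternatives were a pseudocount of 4 or 0.25 units, a minimum mean of 20 units or none, rescaling to 1 total, loci outside genes, each library left out, the library number as a block and, chosen after seeing the data, fits without libraries that stand apart. Expression of protein-coding genes was not used here.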

Additional observations from a re-analysis of the deposited data

Results flagged for a closer look

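In groups of 4 to 10 libraries, 14 of 113 groups tested had a highest or lowest library far from all others relative to the range of the group. Chance gives this pattern in about 1 of 20 independent groups of normally distributed values. The groups here share libraries, and both Atp6v1e1 copies hold the same values, so the comparison does not measure an excess. Outside genes, F1 P4 DMSO library 48-4 had an IAPLTR level of 292 CPM and F3 P6 DMSO library 3 one of 366 CPM. F1 P6 TBT library 11 had an IAPLTR share of 2.74% of LTR reads outside genes. Among P6 libraries this library also had the highest Leydig marker sum (317 CPM) and the lowest endothelial (33.5) and Sertoli (637) sums. Its germ cell (37.4) and macrophage (92.9) sums lay within the range of the others, and the part of these markers was not tested. The IAPLTR3 copy at chr7:48157360 was at 102 CPM in F1 P6 TBT library 11, 9.33 in F3 P4 DMSO library 1, 12.8 in F3 P5 DMSO library 1 and 82.6 in F3 P6 DMSO library 3. The IAPLTR3-int piece at chr13:12829120 was at 8.78 CPM in F1 P5 TBT library 47-4 and 47.8 in F1 P6 TBT library 11. The IAPLTR2_Mm copy at chr13:98525734 was at 25.8 CPM in F3 P4 TBT library 9 and 22.8 in F3 P5 TBT library 8. Inside genes, the IAPLTR2a2_Mm copy in Ppib was at 331 CPM in F1 P6 TBT library 11, and both IAPLTR2_Mm copies in Atp6v1e1 were at 16.9 CPM in F1 P6 DMSO library 1, the lowest of its group.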

How the results depend on the processing

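Of the alternatives for TBT against DMSO, the likelihood ratio test of edgeR called 3, 1, 35 and 1 IAPLTR loci in F1 P5, F1 P6, F3 P5 and F3 P6 cells (of all LTR loci it called 280, 46, 3870 and 354). With no filter, limma called 4 of 5876 IAPLTR loci (0.0681%) in F1 P5, in place of 0, beside 0.138% of all LTR loci. On the log2 scale, small TBT differences of totals changed sign. IAPLTR4_I was at 0.013 in F1 P4 with the quasi-likelihood test, and in F1 P5 at -0.20 over loci tested singly and -0.0941 without TBT libraries 47-4 and 47-5. IAPLTR3 was at 0.0346 in F1 P5 outside genes and -0.16 in F3 P5 without DMSO libraries 1 and 2. IAPLTR2b in F1 P6 was at -0.001145 after rescaling, -0.11 over loci tested singly and -0.0493 without TBT libraries 7 and 8, and IAPLTR3-int in F3 P4 at -0.11 without TBT libraries 5 and 9. The summed IAPLTR level outside genes differed by 0.35 in F1 P5, 0.72 in F1 P6, -0.78 in F3 P4 and -0.081 in F3 P6; it was 0.000226 in F1 P6 over loci tested singly and 0.0496 in F3 P4 after rescaling.

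For P5 against P4, F1 calls were 328 of 6141 loci with no filter and 112 of 187 at a mean of at least 20 units, beside 8.61% and 60.2% of all LTR loci, and 10 totals over loci outside genes or tested singly. After rescaling and outside genes, F1 totals turned to 0.0118 and 2.65 for IAPLTR1_Mm, 0.12 and 2.41 for IAPLTR1a_Mm, 0.13 and 1.497 for IAPLTR2_Mm, and 0.0154 and 1.45 for IAPLTR2a, and over loci tested singly to -0.15 for IAPLTR2b and -0.40 for IAPLTR4. The summed level outside genes was 1.67. F3 calls were 2 of 6217 loci with no filter, 1 of 168 at 20 units, 39 of 792 with the quasi-likelihood test and 11 of 592 without library numbers 1, 2, 5 and 9, beside 0.0822, 0.58, 5.05 and 2.63% of all LTR loci, and 4 totals after rescaling and 7 outside genes. After rescaling, outside genes and with the quasi-likelihood test, F3 totals turned to 0.27, 2.70 and 0.0065 for IAPLTR1_Mm, 0.14, 2.24 and 0.0024 for IAPLTR1a_Mm, and 0.23, 0.67 and 0.0334 for IAPLTR4. Without those 4 numbers IAPLTR1a_Mm was at 0.11 and IAPLTR4 at 0.27. Over loci tested singly IAPLTR2_Mm was at -0.13 and IAPLTR2a at -0.21, and the summed level outside genes was 1.28. Where no other cause is given by the setting itself, the cause was not tested. Rescaling moved the median of all LTR loci from -0.11 to 0.03 in F1 and -0.09 to 0.04 in F3 for P5 against P4, and from 0.15 to 0.05 for TBT in F3 P5.

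With single libraries left out, the F3 calls for P5 against P4 ran from 2 loci (without P5 TBT library 9) to 18 (without P5 TBT library 5), beside 0.4% and 3.06% of all LTR loci. F3 totals ran from -0.10 to 0.0942 for IAPLTR1_Mm, -0.26 to 0.15 for IAPLTR1a_Mm, -0.10 to 0.19 for IAPLTR2_Mm, -0.12 to 0.19 for IAPLTR2a and -0.21 to 0.16 for IAPLTR4. TBT totals ran from -0.33 to 0.18 for IAPLTR4_I in F1 P4, -0.0218 to 0.05004 for IAPLTR2b in F1 P6, -0.29 to 0.64 for IAPLTR3-int in F3 P4, and -0.0207 to 0.53 for IAPLTR3 in F3 P5. P4 and P5 libraries share numbers, and same-numbered libraries deviated together only in part (correlations of -0.01 to 0.28 in F1 and -0.09 to 0.46 in F3), so they were not taken as pairs. With the number as a block, F1 calls were 8 of 10 totals, with IAPLTR2a and IAPLTR4 added. The share of all LTR names called with the block was not counted, and without it 67.5% were called. Of F1 loci, 193 of 464 were called with the block, beside 44.7% of all LTR loci, and of F3 loci 11 of 792, beside 1.93% in place of 1.01%. Outside genes, 9 of 10 F3 totals passed with the block in place of 7, with IAPLTR2a (adjusted p = 0.0172) and IAPLTR2b (0.0298) added and IAPLTR4 at 0.166, and 10 of 10 F1 totals passed with and without it. Of all LTR names outside genes, 59.7% were called in F3 and 94.1% in F1 without the block. Their share was not counted with the block or with libraries left out, so such counts are no result about IAPLTR names. Not every library correlated best with its own number. Of all other results and alternatives, a single total passed the threshold in 24 cases where it had not, all for P5 against P4. The fewest reads on LTR loci, 246520, were in F3 P5 TBT library 5. Without it 7 of 10 F3 totals outside genes passed, as with it, and the median TBT difference outside genes in F3 P5 cells was -0.86 in place of -0.99.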
